A study of Sus scrofa with 30 samples.

Results

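The keratins KRT8, KRT18 and KRT19 were followed across epithelial and mesenchymal samples of pig teats on Affymetrix Porcine Genome Arrays. The members were chosen by gene symbol: every probe set whose only symbol in the platform annotation is KRT8, KRT18 or KRT19 was taken. This gave 4 probe sets of the 24123 on the array, and 3 genes of the 6765 symbols that have a probe set of their own. KRT8 has 2 probe sets, Ssc.15705.1.A1_at, called the first here, and Ssc.27318.1.S1_at, called the second. KRT18 has Ssc.5991.1.A1_at and KRT19 has Ssc.6327.1.S1_at. The genes were picked with their tissue difference already known, so their difference between epithelium and mesenchyme is described and was not tested. Teat type and affection status were not used in the choice and were tested.

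Keratins are intermediate filament proteins that give epithelial cells their mechanical strength, and each filament pairs an acidic type I with a basic type II keratin. KRT8 is a type II keratin whose usual partner is the type I keratin KRT18. KRT19 is a small type I keratin that also pairs with KRT8. Single-layered epithelia carry these keratins, among them the luminal cells that line mammary ducts and the ducts of skin glands, while the layered epidermis of the teat skin is built mainly on KRT5 and KRT14. In the pig annotation Sscrofa11.1, KRT8 and KRT18 are neighbouring coding genes, and KRT19 lies beside KRT15 in another keratin cluster.

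The samples came from 10 slaughter pigs of commercial dam lines with a mean end weight of 110 kg. Of these animals 5 were non-affected, meaning without inverted teats, and 5 were affected. Non-affected animals gave 1 epithelial and 1 mesenchymal sample of a normal teat each. Affected animals gave the same pair from a normal teat and a further pair from an inverted teat. The 6 groups therefore hold 5 arrays each, 30 in all. Animals 950, 1040 and 1058 (non-affected) and 964, 1037 and 1059 (affected) were Large White x German Landrace, animals 957 (non-affected) and 963 (affected) were German Landrace, and animals 1109 (non-affected) and 1103 (affected) were Pietrain x (Large White x German Landrace). No treatment was given, and the labels do not say how epithelium and mesenchyme were separated. Each sample is a bulk piece of tissue, in which fewer cells of a type and less RNA per cell cannot be told apart.

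The deposited values run from 0 to 20.8, with array medians of 5.71 to 6.04, and were read as log2 units. Between 358 and 754 probe sets per array were listed at 0. The brightness of a probe set depends on its probes. Levels, ranks and counts of arrays with low signal are therefore given for each probe set and were not compared between genes. The epithelial array from the inverted teat of animal 1103 stood apart from the other 14 epithelial arrays in the keratins and in the other epithelial genes, as described below, and results that rest on it are given with and without it.

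In epithelial samples of normal teats all 3 genes were bright and varied little. The first KRT8 probe set read 9.64, 10.59, 10.51, 9.66 and 10.64 in the non-affected animals 950, 957, 1040, 1058 and 1109. It read 11.11, 10.22, 9.88, 10.67 and 9.79 in the affected animals 963, 964, 1037, 1059 and 1103. The group means were 10.21 ± 0.51 and 10.33 ± 0.55 (SD, n = 5 each), and the groups overlapped.

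KRT18, the partner of KRT8, read 8.57, 9.10, 8.95, 8.11 and 9.20 in the non-affected animals, in the same order. In the affected animals it read 9.28, 8.90, 8.33, 8.96 and 9.27. The means were 8.79 ± 0.45 and 8.95 ± 0.39 (SD, n = 5 each), again with overlapping groups. KRT19 read 10.79, 11.41, 11.22, 10.03 and 11.73 in the non-affected animals and 11.60, 11.76, 9.91, 11.32 and 11.68 in the affected animals. Its lowest values in the 2 groups came from animals 1058 and 1037, which also had the lowest KRT18 values. The median rank over the 15 epithelial arrays was at the 98.2 percentile of all probe sets for the first and the 97.9 percentile for the second KRT8 probe set, the 93.4 percentile for KRT18 and the 99.0 percentile for KRT19. No epithelial array had a keratin probe set at or below its own 30th percentile, which served as the level for low signal.

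In the epithelium of inverted teats 4 of 5 samples lay in the range of the normal teats for the first KRT8 probe set, KRT18 and KRT19. The first KRT8 probe set read 10.96, 10.84, 10.77 and 9.87 in animals 963, 964, 1037 and 1059, and 7.24 in animal 1103. KRT18 read 9.11, 9.13, 8.83 and 8.22 in the same 4 animals and 6.14 in animal 1103. KRT19 read 11.43, 11.51, 10.95 and 10.69, and 6.87 in animal 1103. Animal 1103 was thus the lowest of all 15 epithelial samples for each gene, although its normal teat epithelium was within the range of the other animals. The second KRT8 probe set showed the same gap, with 9.53 to 10.70 in the other 4 animals and 5.13 in animal 1103.

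Mesenchymal samples of normal teats ranged from near the epithelial level to near 0. In non-affected animals 950, 957, 1040, 1058 and 1109 the first KRT8 probe set read 8.88, 11.16, 6.88, 5.21 and 6.93. In affected animals 963, 964, 1037, 1059 and 1103 it read 11.08, 10.88, 5.52, 6.91 and 3.66. Animals 957, 963 and 964 therefore had about as much KRT8 signal in mesenchyme as in epithelium, while animals 1037, 1058 and 1103 had little. The group means were 7.81 ± 2.28 and 7.61 ± 3.29 (SD, n = 5 each), and the groups overlapped over almost their full range.

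KRT18 read 8.10, 9.58, 6.59, 1.07 and 5.20 in the non-affected mesenchyme and 9.40, 9.03, 4.25, 4.04 and 0.00 in the affected mesenchyme. KRT19 read 10.48, 11.21, 8.36, 1.61 and 7.80 in the non-affected and 11.34, 11.65, 3.60, 6.41 and 3.47 in the affected animals. The lowest KRT18 and KRT19 values came from animals 1037, 1058, 1059 and 1103, and the first KRT8 probe set was lowest in 1103, 1058 and 1037. The signal was not above the array's 30th percentile on 5 of 15 mesenchymal arrays for KRT18 and on 3 for KRT19. For the second and the first KRT8 probe set the counts were 4 and 1. KRT18 was listed at 0 in the normal teat mesenchyme of animal 1103, and the second KRT8 probe set in that of animal 1058.

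In the mesenchyme of inverted teats the first KRT8 probe set read 10.98, 11.55, 6.56, 10.02 and 8.88 in animals 963, 964, 1037, 1059 and 1103. KRT18 read 8.97, 9.81, 4.21, 8.26 and 7.62. KRT19 read 11.24, 12.05, 4.80, 10.68 and 9.77. Animal 1037 was lowest for each gene and animal 1103 next, while the other 3 were above the lowest normal teat epithelium. The group means were 9.60 ± 1.98 for the first KRT8 probe set, 7.77 ± 2.15 for KRT18 and 9.71 ± 2.86 for KRT19 (SD, n = 5 each).

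**Figure D1:**
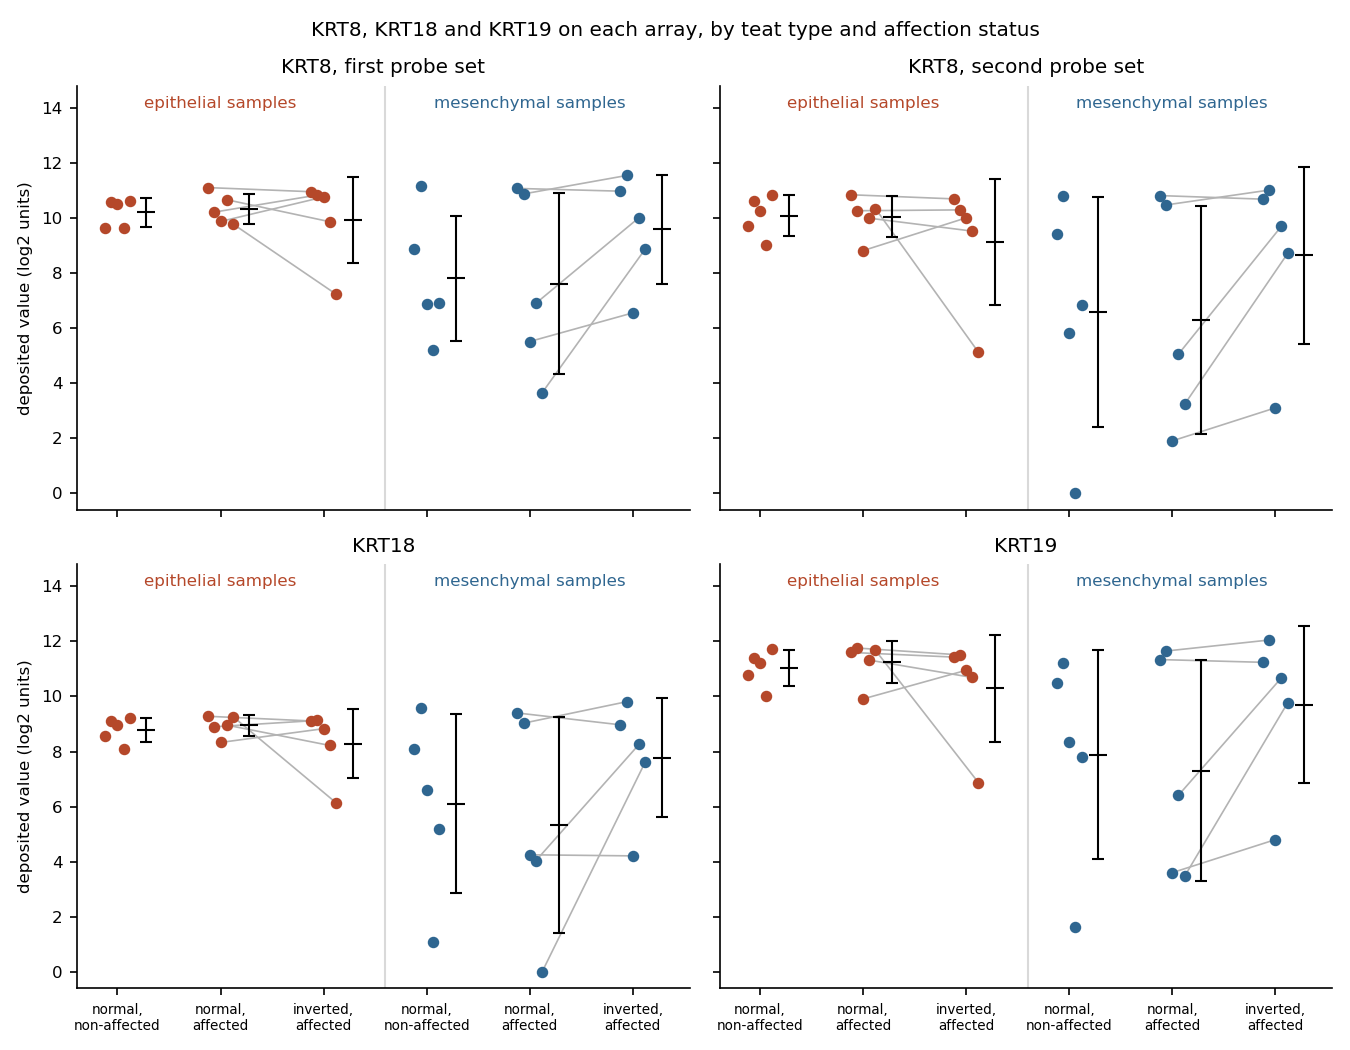
Deposited value (log2 units) of each keratin probe set on every array, for epithelial samples (red) and mesenchymal samples (blue) by teat type and affection status. Points are animals, grey lines join the normal and inverted teat of the same affected animal, and black bars give the group mean ± SD (n = 5). The epithelial points lie close together except for animal 1103 in the inverted group, while mesenchymal points of normal teats reach down to 0.00.

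The order of the 6 group means was the same for the first KRT8 probe set, KRT18 and KRT19. Normal teat epithelium of affected animals was highest, followed by normal teat epithelium of non-affected animals, inverted teat epithelium, inverted teat mesenchyme, normal teat mesenchyme of non-affected and then of affected animals. For the second KRT8 probe set the first 2 places were exchanged, at 10.06 ± 0.75 in affected and 10.09 ± 0.74 in non-affected animals, and the remaining means were 9.13 ± 2.28, 8.65 ± 3.22, 6.58 ± 4.18 and 6.30 ± 4.13 (SD, n = 5 each). In every pair of neighbours in this order the difference was smaller than the larger of the 2 SDs. For KRT19 the means ran from 11.25 ± 0.77 through 11.04 ± 0.66, 10.29 ± 1.94, 9.71 ± 2.86 and 7.89 ± 3.79 to 7.29 ± 4.01. For KRT18 inverted teat epithelium averaged 8.29 ± 1.26, normal teat mesenchyme 6.11 ± 3.26 in non-affected and 5.34 ± 3.92 in affected animals.

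Within normal teats the epithelial sample exceeded the mesenchymal sample of the same animal by 2.56 ± 2.43 for the first KRT8 probe set, 3.63 ± 3.47 for the second, 3.14 ± 3.33 for KRT18 and 3.55 ± 3.33 for KRT19 (log2 difference, mean ± SD over 10 animals). Epithelium was higher in 10 of 10 animals for KRT19, in 8 for each KRT8 probe set and in 7 for KRT18. The difference for KRT19 ran from 0.11 to 8.42, and that for KRT18 from -0.48 to 9.27. These values chose the genes and are given as a description.

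Averaged over 1 probe set for each of the 3 genes, the epithelial minus mesenchymal difference in normal teats was -0.29, -0.23, 0.06 and 0.51 in animals 957, 964, 963 and 950. In animals 1040, 1109, 1059, 1037, 1058 and 1103 it was 2.95, 3.88, 4.53, 4.92, 6.63 and 7.87. The spread arose on the mesenchymal side, since the mesenchymal mean of the 3 genes ran from 2.38 to 10.65 in normal teats and the epithelial mean from 9.27 to 10.66. Both groups held animals with small and with large differences.

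In inverted teats the same difference was smaller and had no common direction. It was 0.34 ± 2.26 for the first and 0.48 ± 3.87 for the second KRT8 probe set, 0.51 ± 2.38 for KRT18 and 0.58 ± 3.35 for KRT19 (log2 difference, mean ± SD over 5 animals). For the mean of the 3 genes it was 4.99 in animal 1037, 0.11, -0.06 and -0.64 in animals 963, 1059 and 964, and -2.01 in animal 1103. In animal 1103 the inverted teat thus had more keratin signal in the mesenchymal than in the epithelial sample, at 8.76 against 6.75. Without the epithelial array of that teat the group means differed by 1.01 for the first and 1.48 for the second KRT8 probe set, 1.05 for KRT18 and 1.44 for KRT19, and without animal 1037 by -0.63, -1.12, -0.51 and -0.81.

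**Figure D2:**
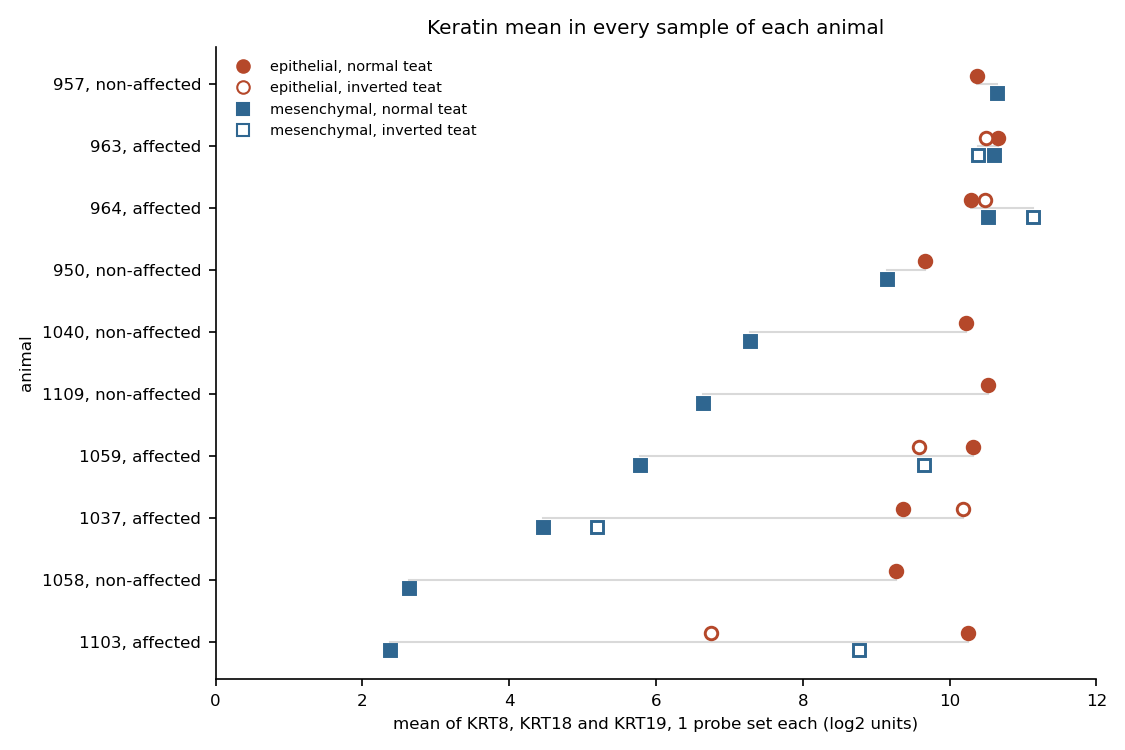
Mean of KRT8, KRT18 and KRT19 (1 probe set each, log2 units) in each sample, with 1 row per animal ordered by the value in normal teat mesenchyme. Circles are epithelial and squares mesenchymal samples, filled for normal and open for inverted teats. Epithelial samples lie between 9.27 and 10.66 except the inverted teat of animal 1103 at 6.75, and normal teat mesenchyme runs from 2.38 to 10.65.

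The first tested question was whether an inverted teat differs in its keratins from a normal teat of an affected pig. The main fit left the teats of an animal unpaired, so its errors include the spread between animals. In epithelium the log2 difference (inverted minus normal) was -0.40 ± 0.56 for the first and -0.92 ± 0.81 for the second KRT8 probe set, -0.66 ± 0.45 for KRT18 and -0.96 ± 0.71 for KRT19 (± SE, 5 arrays a group). None passed the threshold in limma's moderated test, with an adjusted p of 1 for each, and 0% of the 17661 probe sets tested did. The 95% intervals were -1.60 to 0.80, -2.65 to 0.80, -1.63 to 0.30 and -2.47 to 0.54. The size, and for KRT8 the sign, rested on animal 1103: without the epithelial array of its inverted teat the differences were 0.27, 0.08, -0.12 and -0.11. On that array the 9 measured smooth muscle and myoepithelial genes averaged 10.31 and the 10 endothelial genes 8.49, with none of either list at 0. On the other 14 epithelial arrays the averages were 8.24 to 9.62 and 7.31 to 8.03. The 17 adhesion and junction genes of simple epithelia averaged 4.49 on that array against 6.66 to 7.62 on the others, and the fibroblast list 9.95 against 10.53 to 10.97. The part of these other genes in the keratin result was not tested.

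In mesenchyme the mean keratin signal was higher in inverted than in normal teats, but no difference passed in the fit, which was again unpaired. The log2 difference was 1.98 ± 1.44 for the first and 2.35 ± 2.16 for the second KRT8 probe set, 2.43 ± 1.79 for KRT18 and 2.42 ± 2.01 for KRT19 (± SE, 5 arrays a group), with an adjusted p of 1 from limma for each. Here 0% of 17839 probe sets passed. The 95% intervals were -1.08 to 5.05, -2.25 to 6.95, -1.37 to 6.23 and -1.85 to 6.68, which include differences of several log2 units upward. Inverted teats were higher in 4 of 5 animals for KRT19 and both KRT8 probe sets and in 3 of 5 for KRT18. Taken within animals, the SD of the difference over the 5 animals was 2.16 and 2.54 for the KRT8 probe sets, 3.44 for KRT18 and 2.76 for KRT19. Fits with the animal as a block called none of them either.

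The higher mean came largely from 2 animals. The mean of the 3 genes went from 2.38 to 8.76 in animal 1103 and from 5.78 to 9.65 in animal 1059. In normal teat mesenchyme of animal 1103 no keratin probe set was above the array's 30th percentile, and KRT18 was listed at 0. The size of the rise in that animal is therefore uncertain. In animals 963, 964 and 1037 the inverted minus normal difference was -0.21, 0.61 and 0.73. Without animal 1103 the differences were 1.17 for the first and 1.56 for the second KRT8 probe set, 1.13 for KRT18 and 1.44 for KRT19. The skeletal muscle list averaged 8.81 to 12.11 in normal and 3.22 to 11.42 in inverted teat mesenchyme of affected animals, and all 13 of its measured genes had a lower mean in inverted teats, with a median of -1.54 and none past the threshold. That median came from animal 963, whose list mean was 11.25 in the normal and 3.22 in the inverted teat: without it the median was 0.28, with 10 of 13 genes above 0, and without animal 1037 it was -2.39. All 16 tested adhesion and junction genes of simple epithelia had a higher mean in inverted teat mesenchyme, with a median of 0.59 against 0.07 over all probe sets, and none of them passed either. That median was 0.31 without animal 1059 and 0.39 without animal 1103. The part of muscle in the keratin values was not tested.

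The second tested question, the one named in the title of the study, was predisposition, addressed by the normal teats of affected against non-affected animals. In epithelium the affected minus non-affected difference was 0.13 ± 0.56 for the first and -0.04 ± 0.81 for the second KRT8 probe set, 0.16 ± 0.45 for KRT18 and 0.21 ± 0.71 for KRT19 (log2, ± SE, 5 arrays a group). The adjusted p from limma was 0.999 for each, and 0% of all probe sets tested passed. The intervals, -1.08 to 1.33, -1.76 to 1.69, -0.80 to 1.13 and -1.29 to 1.72, bound any difference in epithelium more closely than those in mesenchyme. In mesenchyme the differences were -0.20 ± 1.44, -0.28 ± 2.16, -0.77 ± 1.79 and -0.60 ± 2.01, with an adjusted p of 1 from limma for each and 0% of probe sets passing. For KRT19 the mesenchymal interval ran from -4.86 to 3.67.

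A further comparison took inverted teats against teats of non-affected pigs, so that teat type and affection status both differ. In epithelium the differences were -0.27 ± 0.56, -0.96 ± 0.81, -0.50 ± 0.45 and -0.75 ± 0.71 for the first and second KRT8 probe sets, KRT18 and KRT19 (log2, ± SE). In mesenchyme they were 1.78 ± 1.44, 2.07 ± 2.16, 1.66 ± 1.79 and 1.82 ± 2.01. None passed in limma, with an adjusted p of 1 for each and 0% of all probe sets called in either tissue. The epithelial differences became 0.40, 0.04, 0.04 and 0.11 without the inverted teat array of animal 1103. Without animal 1058 the mesenchymal differences were 1.13, 0.42, 0.41 and 0.25. These comparisons share arrays with the 2 before.

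The opposite signs of the teat effect in epithelium and mesenchyme were tested as a difference of differences over all 30 arrays. The epithelial minus mesenchymal teat effect was -2.38 ± 1.64 for the first and -3.27 ± 2.45 for the second KRT8 probe set, -3.09 ± 1.95 for KRT18 and -3.38 ± 2.26 for KRT19 (log2, ± SE). The unadjusted p was 0.158, 0.193, 0.125 and 0.146, and the adjusted p from limma was 1 for each. Of 18783 probe sets 0% passed. A difference in the teat effect between the tissues was therefore not shown for the keratins, and the intervals, such as -7.10 to 0.92 for KRT18, were wide. Without animal 1103 the values were -1.03, -1.41, -1.18 and -1.44.

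**Figure D3:**
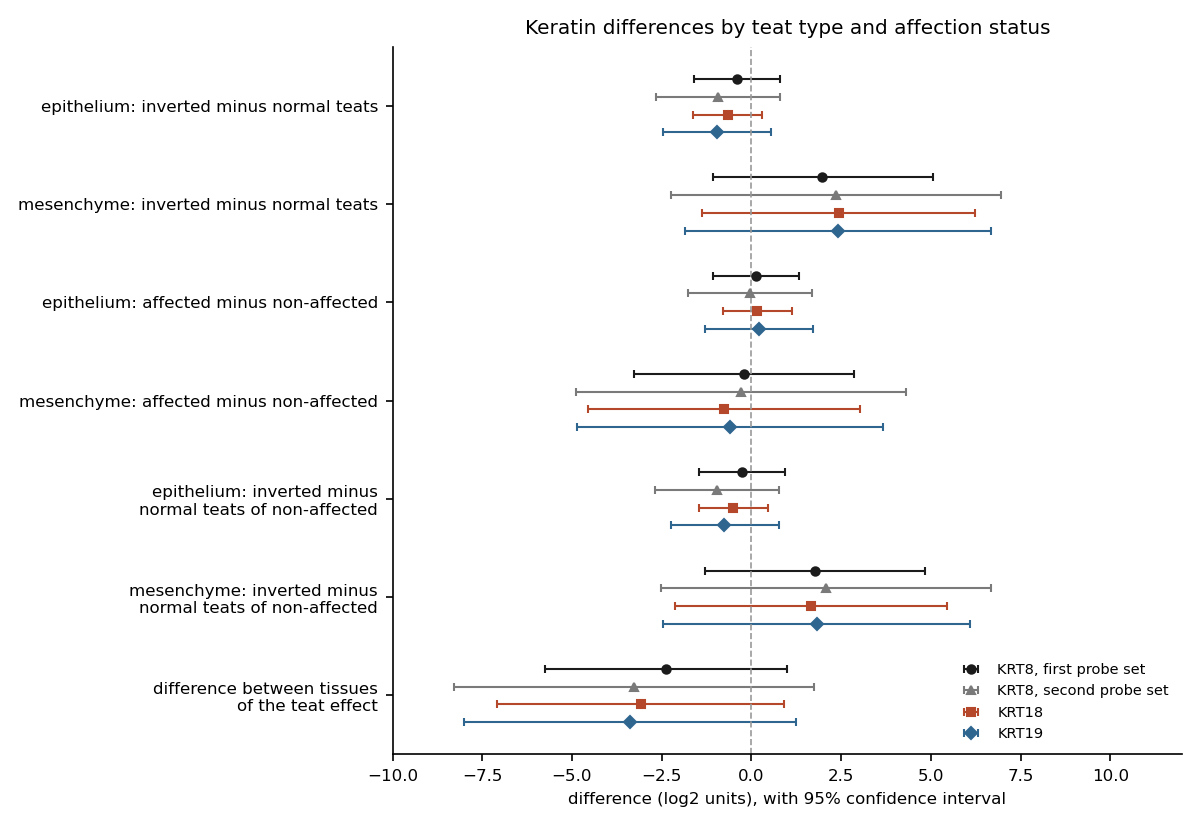
Differences in each keratin probe set (log2 units, points) with 95% confidence intervals (bars) for the comparisons of teat type and affection status and for the difference between tissues of the teat effect. Every interval includes 0, and the intervals in mesenchyme are wider than those in epithelium, for example -1.37 to 6.23 against -1.63 to 0.30 for KRT18 between inverted and normal teats.

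The 3 genes and the 2 KRT8 probe sets followed one another from sample to sample. Over the 15 mesenchymal arrays Pearson's r between the 4 probe sets was 0.93 to 0.99. Over the 15 epithelial arrays it was 0.90 to 0.99, and 0.59 to 0.93 over the 14 arrays without the inverted teat of animal 1103. The lowest of these values, 0.59, was between the first KRT8 probe set and KRT19, and the second KRT8 probe set had 0.93 with KRT19 in the same 14 arrays. The 15 arrays of a tissue come from 10 animals, each array carries all 4 probe sets, and these correlations describe the arrays only.

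The genes whose pattern was most like the keratins were sought over the same arrays among genes outside the set, with 1 probe set a gene. Over the 15 mesenchymal arrays the highest Pearson's r with the mean of the 3 keratins was 0.98 for FOXA1, a forkhead transcription factor of luminal mammary cells, and 0.98 for the solute carrier SLC44A4. They were followed by WFDC2, a secreted whey acidic protein family member, at 0.97, the transcription factor TFAP2B at 0.96, the tight junction receptor CXADR at 0.96 and TSTD1 at 0.96. FOXA1 ran from 0.00 to 9.91 on these arrays and WFDC2 from 0.00 to 8.86. Of 6098 genes 42, or 0.69%, had an r above 0.9, and the median r was 0.04. At the other end stood the small GTPase RALA with -0.87, INO80E, a subunit of a chromatin remodelling complex, with -0.85, the agouti signalling protein ASIP with -0.84 and AVPI1 with -0.82. These 4 genes varied little, RALA from 7.81 to 8.68.

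Over the 15 epithelial arrays the highest values were 0.98 for the scaffold protein SLC9A3R1, for SLC44A4, for the collagen receptor DDR1, for the membrane protease ST14, for the claudin CLDN3 and for LOC100737113. Much of this came from the inverted teat of animal 1103, where ST14 and CLDN3 were listed at 0. Without that array the same genes had 0.93, 0.91, 0.92, 0.92, 0.89 and 0.88. The lowest values were -0.93 for CDC42EP3 and AKAP2 and -0.92 for INPP5A and EGFL8, and without that array they were -0.77, -0.72, -0.58 and -0.77. SLC44A4 was the only gene among the 6 highest in both tissues.

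Other genes of single-layered epithelia were examined as lists that do not include the keratins, in the comparison of epithelium with mesenchyme in normal teats. The lists here and below were also chosen with earlier results of these data known. Their p values and counts describe these arrays and give no independent support for the keratin pattern. Of all 18286 probe sets tested, 12.9% were higher in epithelium and 20.6% higher in mesenchyme, with a median difference of -0.06. Higher in epithelium were 38.5% of the calls, against 54.7% after quantile normalization. Of 16 tested genes for adhesion and junctions of simple epithelia, 9 were higher in epithelium and 1 was lower, with a median difference of 1.05. ESRP1, a splicing regulator of epithelial cells, was higher by 2.40 ± 0.64 and CLDN3, a tight junction claudin, by 1.97 ± 0.60 (log2, ± SE, 10 arrays a tissue), with adjusted p of 0.008 and 0.0166 from limma. The second CLDN3 probe set differed by -0.20. EPCAM, an epithelial adhesion molecule, had 3.14 ± 1.08 and CDH1, the adherens junction protein E-cadherin, 2.66 ± 0.89, with adjusted p of 0.0303 and 0.0268 from limma. MAL2, a membrane trafficking protein, was lower in epithelium by -1.01 ± 0.20 (adjusted p = 0.000804, limma), while its other probe set differed by 0.28. The count of 9 fell to 2 without animal 1059 and to 3 without animal 1040, 1103 or 1109, and the 1 lower gene became 2 without animal 950 or 964 and in the fits blocked by animal. EPCAM missed the threshold without any 1 of animals 1037, 1040, 1058, 1059, 1103 and 1109, with a highest adjusted p of 0.0792, and CDH1 without 1040, 1059, 1103 or 1109, with 0.0691.

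Transcription factors of luminal and other epithelial cells behaved alike. Of 9 tested, 7 were higher in epithelium and none was lower, with a median of 1.39. ELF3, an epithelial ETS factor, was higher by 1.45 ± 0.36 and ESR1, the oestrogen receptor of luminal cells, by 1.30 ± 0.36, with adjusted p of 0.00497 and 0.0101 from limma. The second ELF3 probe set differed by 0.16. FOXA1 and TFAP2B, the factors that followed the keratins most closely in mesenchyme, differed by 3.29 ± 1.0 and 2.45 ± 0.72, with adjusted p of 0.0162 and 0.0143 from limma. The other TFAP2B probe set differed by 0.47. Both genes were singled out on mesenchymal arrays that this comparison shares. The count ran from 5 to 7 when animals were left out in turn, and 1 gene was lower with no filter and with the animal as a random replicate block.

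Of the list of desmosome and hemidesmosome proteins, called the keratin anchors here, 3 of 7 tested were higher in epithelium, with a median of 0.37. Desmoplakin, DSP, which ties keratin to the desmosome, was higher by 2.63 ± 0.74 and plakophilin 4, PKP4, by 0.92 ± 0.18, with adjusted p of 0.011 and 0.000795 from limma. The other DSP probe set differed by 0.38. The third gene, PERP, a desmosomal membrane protein, was named after its value was seen and differed by 1.90 ± 0.57 (adjusted p = 0.015, limma). Plakoglobin, JUP, had -0.55 ± 0.30 and did not pass, with an adjusted p of 0.154 from limma. No gene of this list was lower past the threshold, but 1 was without animal 950 and in the fits blocked by animal.

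**Figure D4:**
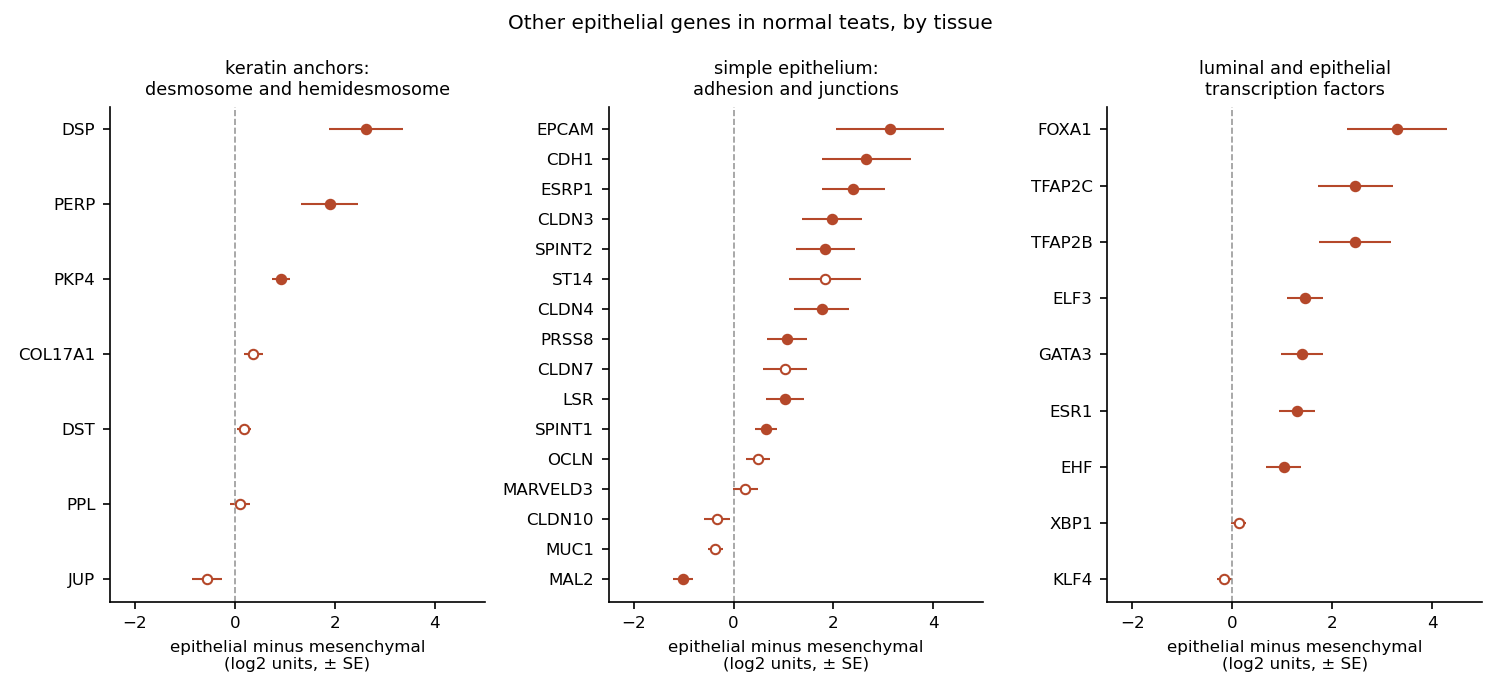
Epithelial minus mesenchymal difference (log2 units, ± SE) in normal teats for the tested genes of 3 lists that do not include KRT8, KRT18 or KRT19. Filled points passed an adjusted p of 0.05 in limma, and the lists were chosen with earlier results of these data known. In the adhesion list 9 of 16 genes were higher in epithelium and MAL2 was lower, among transcription factors 7 of 9 were higher, and among keratin anchors 3 of 7.

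Of 15 milk and secretory genes tested, 5 were higher in epithelium and 1 was lower. Over all probe sets tested, 12.9% were higher and 20.6% lower. The 5 higher genes were the protease MMP7 with 4.41 ± 1.0, WFDC2 with 4.05 ± 0.95, lactoferrin (LTF), the immunoglobulin receptor PIGR and clusterin (CLU). Lactoferrin, PIGR and CLU, named after their values were seen, differed by 3.92 ± 1.02, 1.76 ± 0.60 and 1.24 ± 0.47, with adjusted p of 0.00685, 0.0292 and 0.0478 from limma. The adjusted p from limma was 0.00263 for MMP7 and 0.00323 for WFDC2, and the second WFDC2 probe set differed by 0.03. Lactalbumin, LALBA, was lower by -0.45 ± 0.16 (adjusted p = 0.0353, limma). With the animal as a fixed replicate block 4 genes were lower, and as a random block 3. The list median was -0.31 (0.02 after quantile normalization), and the count of 5 became 3 without any 1 of animals 1040, 1059, 1103 and 1109. CLU missed the threshold with no filter and without any 1 of animals 1037, 1040, 1058, 1059, 1103 and 1109, with a highest adjusted p of 0.126, and PIGR without 1040, 1059, 1103 or 1109, with 0.0839. LALBA missed it without any 1 of animals 964, 1040, 1058, 1103 and 1109, with a highest adjusted p of 0.0896.

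The milk protein beta-casein, CSN2, separated the animals rather than the tissues. In every sample of animals 950, 957, 963 and 964 it read 12.94 to 16.17, and in every sample of the other 6 animals 4.0 to 6.39. The former 4 animals were those with a mesenchymal mean of the 3 keratins of 9.15 to 11.14 in each of their mesenchymal samples. Their epithelial minus mesenchymal difference in the keratin mean of normal teats was -0.29 to 0.51, against 2.95 to 7.87 in the other 6 animals. The mean tissue differences over all animals therefore combine these 2 sets, and a link with CSN2 was not tested. The inverted teat mesenchyme of animals 1059 and 1103 had a keratin mean of 9.65 and 8.76 with CSN2 at 5.95 and 5.41. The difference between tissues in CSN2 was -0.58 ± 2.09 and did not pass, with an adjusted p of 0.856 from limma. Pearson's r of CSN2 with the keratin mean was 0.75 over the 15 mesenchymal and 0.34 over the 15 epithelial arrays.

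Other keratins gave little to compare. Of 26 stratified and hair keratins on the list, KRT1, KRT2 and KRT10 were measured and 2 could be tested. KRT2 and KRT10, keratins of the suprabasal epidermis, differed by 0.23 ± 0.17 and 0.20 ± 0.16 between the tissues and did not pass. KRT5, KRT7 and the luminal factor ELF5 were not analysed here. Among 7 other intermediate filament genes, desmin, DES, the filament protein of muscle, was lower in epithelium by -2.65 ± 0.49 (adjusted p = 0.000482, limma), and its other probe set differed by 0.27. Vimentin, VIM, the filament protein of mesenchymal cells, was bright in both tissues, at 13.09 ± 0.14 to 13.11 ± 0.11 in normal teat epithelium and 13.22 ± 0.21 to 13.32 ± 0.27 in normal teat mesenchyme (SD, n = 5 each). Its difference of -0.17 ± 0.10 did not pass, with an adjusted p of 0.193 from limma. Vimentin did not follow the keratins in either tissue, with r of -0.30 in mesenchyme and -0.25 in epithelium.

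Among markers of other tissues, those of skeletal muscle and fat were mostly lower in epithelium, and the other lists had few calls in the main fit. Of all probe sets tested in this comparison, 12.9% were higher and 20.6% lower in epithelium. Of 13 skeletal muscle genes 12 were lower in normal teat epithelium, with a median of -4.90, and 10 of 10 adipocyte genes were, with a median of -2.03. The skeletal muscle list averaged 3.03 to 8.90 in the epithelial and 2.81 to 12.11 in the mesenchymal samples of normal teats. Of the 10 epithelial arrays of normal teats, 7 had at least 1 muscle gene at 0, up to 5 of 13. The adipocyte list averaged 7.95 to 10.45 in epithelial and 10.28 to 11.79 in mesenchymal samples, with no gene at 0. Of the smooth muscle list 1 of 9 tested genes was lower in epithelium, of the fibroblast list 2 of 10 were higher and 1 was lower, and none of 10 endothelial and 7 leukocyte genes passed. These counts moved with the processing. After quantile normalization 2 smooth muscle and 6 fibroblast genes were higher in epithelium and no fibroblast gene was lower, and with the animal as a fixed replicate block 4 fibroblast genes were higher and 1 leukocyte gene was lower. The 2 higher fibroblast genes became 1 without animal 1040 or 1059, the lower fibroblast gene was lost without any 1 of animals 957, 964, 1040, 1059 and 1109, and 1 smooth muscle gene was higher without animal 963 or 964. The part of muscle and fat content in the keratin values was not tested.

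Within mesenchyme, the keratin mean rose with the lists of epithelial genes and, less closely, with the fibroblast list. It hardly varied with the skeletal muscle list. Pearson's r with the keratin mean over the 15 mesenchymal arrays was 0.97 for the epithelial transcription factors, 0.94 for the adhesion genes, 0.86 for the keratin anchors and 0.86 for the milk and secretory genes. It was -0.12 for the skeletal muscle, 0.28 for the smooth muscle, -0.06 for the endothelial, 0.37 for the leukocyte, -0.56 for the adipocyte and 0.73 for the fibroblast list. The adhesion list averaged 7.01 to 7.93 in the mesenchymal samples of animals 950, 957, 963 and 964, and 4.70 to 5.83 in normal teat mesenchyme of the other animals. It was 7.11 and 6.62 in the inverted teat mesenchyme of animals 1059 and 1103, and 4.67 in that of animal 1037. EPCAM and CDH1 each had an r of 0.94 with the keratin mean in mesenchyme. Over the 14 epithelial arrays without the inverted teat of animal 1103 the adhesion list had 0.91 and the transcription factors 0.84, while the adipocyte list had -0.66 and the endothelial list -0.68.

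**Figure D5:**
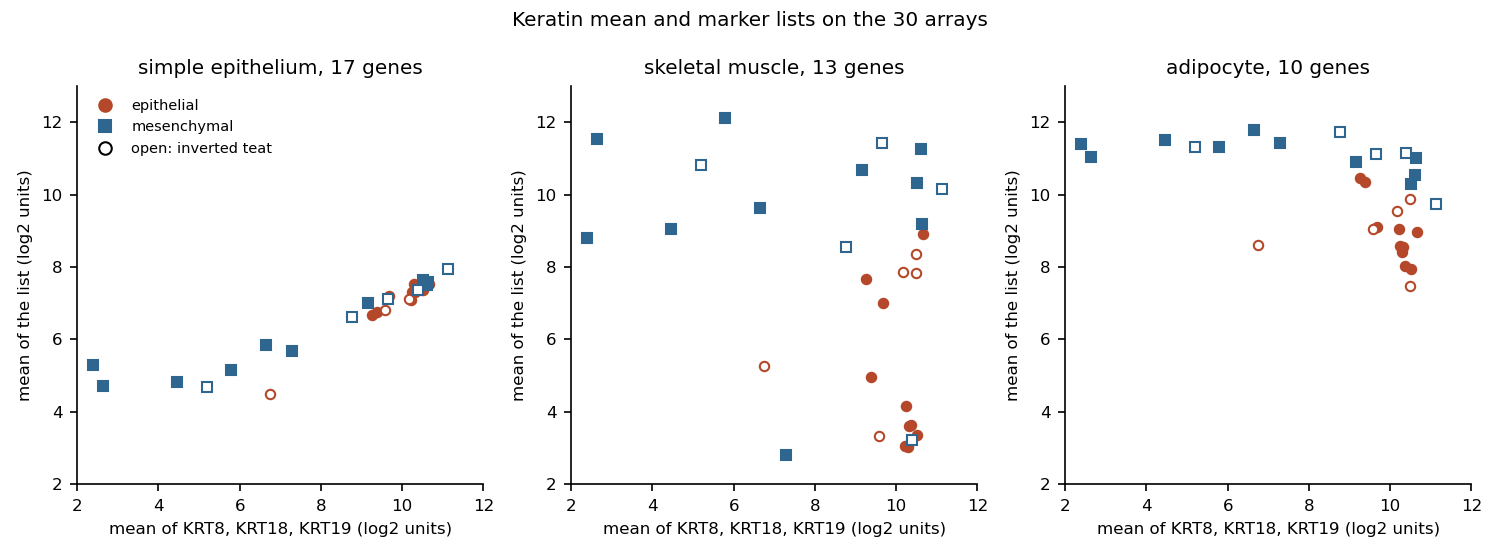
Mean of KRT8, KRT18 and KRT19 (horizontal, log2 units) against the mean of 17 adhesion and junction genes of simple epithelia, 13 skeletal muscle genes and 10 adipocyte genes (vertical, log2 units) on the 30 arrays, with open symbols for inverted teats. The adhesion list is higher where the keratins are higher in mesenchyme (r = 0.94 over 15 arrays), with r = -0.12 for the muscle list, and the open red circle at a keratin mean of 6.75 is the inverted teat epithelium of animal 1103.

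In inverted teats few genes of the epithelial lists passed between the tissues, and the errors were wide. There 0.848% of 17108 probe sets were higher in epithelium and 11.5% higher in mesenchyme. Of the calls 6.86% were higher in epithelium, against 19.1% of 593 after median centring and 1 of 2 after quantile normalization. No gene of the adhesion, transcription factor or milk lists was higher in epithelium past the threshold. The medians were -0.07, 0.32 and -0.15, against -0.12 over all probe sets, and without the inverted teat array of animal 1103 they were 0.56, 0.60 and 0.72. MAL2 was lower in epithelium by -1.67 ± 0.47 and JUP by -0.47 ± 0.13 (adjusted p = 0.0413 and 0.0388, limma). Both calls were lost with quantile normalization, with median centring and with no filter, that of MAL2 also without any 1 of animals 963, 1037, 1059 and 1103, and that of JUP also in the fits blocked by animal and without any 1 animal. EPCAM differed by 0.74 ± 1.77, CDH1 by 0.55 ± 1.68 and FOXA1 by 0.32 ± 1.42, and none of them passed, with adjusted p of 0.808, 0.85 and 0.899 from limma. The 2115 probe sets called in this comparison became 1 without any 1 of animals 1037, 1059 and 1103, 1408 without animal 963, 1350 without the epithelial array of animal 1103 and 4432 with the animal as a random replicate block.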

How the data were processed

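The authors deposited 1 value per probe set and array for 30 Affymetrix Porcine Genome Arrays, made with GCOS 1.1.1 and PLIER per the submitters' processing notes. RNA was labelled from 500 ng total RNA per the labels' protocols. The deposited values were read as log2 from their range, and neither the log base nor any normalization between arrays is given in the sources used here. No counts exist, so the number of arrays limits precision. Groups came from the labels, and animal numbers from the sample descriptions in the labels.

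Of 24123 probe sets, 10099 have 1 gene symbol in the platform annotation, 198 several and 13826 none. Symbols were updated by Entrez ID through RefSeq (Sscrofa11.1), which held 9989 of the IDs. The 124 Affymetrix control probe sets were left out. A gene with several probe sets was represented by the brightest. Probe sets above the 30th percentile of their array in at least 5 arrays of a fit were tested with limma 3.58.1 in R 4.3.3 (lmFit, eBayes, two-sided, Benjamini-Hochberg over all probe sets tested, threshold 0.05). The 4 keratin probe sets passed the filter in every fit. The epithelial or mesenchymal fits held 15 arrays and 3 group means, the tissue fit in normal teats had affection status as a term, and the interaction used all 30 arrays. The procedure was tested on simulated data. Animals are the replicates of a group. Samples of 1 animal share its number, and their deviations from the group means correlated at 0.15 to 0.29 in epithelium and 0.08 to 0.42 in mesenchyme between teats; the animal was used as a block in alternatives. Other alternatives were quantile normalization, median centring, no filter, a 50th percentile filter and leaving out each animal in turn. Leaving out the epithelial array of the inverted teat of animal 1103 was another, added after seeing the data for every comparison but that of teat type in epithelium, as were the list medians of the teat difference in mesenchyme without each animal.

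The members and gene lists were chosen with earlier results of these data known. Genes named by rule are all probe sets of the 3 keratins, the 6 genes with the highest and 4 with the lowest correlation with the keratin mean in each tissue, the 2 with the smallest p in each direction in each epithelial list, and EPCAM, CDH1, VIM, CSN2, KRT5, KRT7 and ELF5 where they have a probe set of their own. PERP, LTF, PIGR and CLU were added after their values were seen. JUP, KRT1, KRT2 and KRT10 are also named outside this rule. Scan dates are not given in the sources used here, so a batch was not examined.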

Additional observations from a re-analysis of the deposited data

Results flagged for a closer look

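The 6 groups of 5 samples were examined for a sample far from the others, for each of the 4 probe sets and for the mean of the 3 genes. Chance flags about 1 in 20 independent groups, but these values move together and 3 of the 4 flags come from a single array, so their number was not compared with that share. In inverted teat epithelium animal 1103 was far below the other 4 animals for the second KRT8 probe set at 5.13, for KRT19 at 6.87 and for the mean of the 3 genes at 6.75. In normal teat epithelium of affected animals, animal 1037 was far below the others for KRT19 at 9.91.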

How the results depend on the processing

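The keratin differences between teat types and affection states stayed short of the threshold under every alternative run, and 515 of 552 recomputed keratin values kept their sign or, for tissue differences, stayed within 1 SD. The other 37, none of them a tissue difference, changed sign, and none was past the threshold. A tissue difference that moved by less than its SD between animals counted as kept even where its sign changed. Part of the 552 values could not change, because the filters leave each keratin difference as it was. Leaving out a non-affected animal likewise cannot move the teat differences within affected animals. The count of 515 is therefore no measure of robustness. In inverted teats each keratin tissue difference turned negative without animal 1037 and was counted as kept. Without the epithelial array of the inverted teat of animal 1103 the epithelial teat difference was 0.27 and 0.08 for the first and second KRT8 probe sets, and against non-affected animals it was 0.40, 0.04, 0.04 and 0.11 (KRT8 first and second, KRT18, KRT19). With animals left out in turn, the epithelial teat difference ran from -0.72 to 0.14, -1.45 to 0.15 and -1.46 to 0 for KRT8 first, KRT8 second and KRT19. The difference by affection status ran from -0.07 to 0.26, -0.30 to 0.27, -0.01 to 0.32 and -0.04 to 0.55 in epithelium and from -1.07 to 0.79, -1.93 to 0.82, -2.02 to 0.57 and -2.17 to 0.36 in mesenchyme, in the order KRT8 first and second, KRT18, KRT19. Against non-affected animals inverted teat epithelium ran from -0.53 to 0.40, -1.35 to 0.04, -0.71 to 0.04 and -1.05 to 0.11. The mesenchymal status comparison called 0 to 1 probe sets, with 1 without animal 957. The tissue comparison in inverted teats called 2115 probe sets, but 2 with quantile normalization, 593 with median centring, 1090 with no filter, 1350 without the inverted teat array of animal 1103, 4432 with the animal as a random replicate block and 1 to 1490 with animals left out. With the animal as a fixed replicate block it called 2496, and in normal teats 7805 against 6122 unblocked; the paired fits changed no keratin call. Quantile normalization moved the share of calls higher in epithelium in normal teats from 38.5% to 54.7%, and the median difference of all probe sets in inverted teats from -0.12 to 0.01. The cause was not tested. At 5 arrays a group, an unadjusted p under 0.05 from limma was reached by 303 probe sets for teat type in epithelium and 78 in mesenchyme. For affection status the counts were 420 and 201, and for inverted teats against non-affected animals 484 and 219. For the difference between tissues the count was 171, and 0 were called in each comparison. Each count was a smaller share of the probe sets tested than the 0.05 expected with no difference anywhere. These fits did not pair the samples of an animal, and the part of that in the low counts was not tested.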
